A study of Mus musculus with 2 samples.

Results

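Chromatin modifiers and remodellers were described in cells sorted from the embryonic mouse sinoatrial node, the pacemaker tissue of the heart, with and without deletion of Isl1. The genes were chosen by symbol alone, from families of histone demethylases (Kdm, without Kdm5d), deacetylases (Hdac, Sirt), methyltransferases (Ezh, Ehmt, Suv, Setd, Mll), DNA methylation enzymes (Dnmt, Tet), Polycomb and HP1 genes (Eed, Suz12, Rnf2, Cbx) and remodelling or reader genes (Smarc, Arid, Chd, Brd, Ing). This gave 108 genes of the 12557 rows in the gene table.

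Both groups were ICR embryos that carried Hcn4-CreERT2, a recombinase that tamoxifen activates in cells using the pacemaker channel gene Hcn4, and the Rosa-tdTomato reporter, which recombination turns red. The mutant group was Isl1 f/f and the control group Isl1 +/+. Recombination was induced with tamoxifen at E10.5, and the tissue was taken 36 hours later (E12.5 in the stage label). Red nodes of 1 genotype were pooled, CD31-positive endothelial cells were depleted with beads and red cells were sorted. The data therefore describe cells sorted as red and not the whole node. Markers of other cells were also found, as given below, and "control cells" and "mutant cells" stand for these sorted pools. There was 1 library per genotype, from pooled embryos, and therefore no replicate error and no test. Differences below are differences between 2 libraries.

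Histone-modifying enzymes add or remove methyl and acetyl groups on histone tails, and reader proteins bind them. Polycomb complexes keep developmental genes repressed through H3K27 methylation, and the MLL family methylates H3K4 at active genes. Remodellers of the BAF, ISWI and CHD families use ATP to slide or evict nucleosomes. In the developing heart, BAF subunits act together with cardiac transcription factors, and class IIa deacetylases are known for binding MEF2 factors and holding back muscle gene expression.

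Isl1, the deleted gene, checked the labels: it read 7.65 RPKM in control and 1.52 RPKM in mutant cells, 5.02-fold lower (interval 4.53 to 5.56). RPKM scales reads to exon length and to library depth, so levels of different genes can be compared. The totals of 110117186 control and 119018888 mutant reads, on which the intervals rest, were inferred from the steps between the deposited values and are not stated in a header or label. Intervals beside a fold are exact conditional binomial (Clopper-Pearson) 95% intervals. They cover counting error only, since there is 1 library per genotype. They treat reads as independent, but PCR copies are not independent molecules, so the intervals can be too narrow even for counting error. Of the markers of the sorted cells, 12 of 12 cardiomyocyte genes were in the table and summed to 12643 RPKM in control and 18415 RPKM in mutant cells, and 9 of 11 node genes summed to 126 and 57.3 RPKM. Markers of other cells also differed between the libraries. Summed levels went from 418 to 73.3 RPKM over 12 erythroid genes, from 45.7 to 8.60 RPKM over 9 macrophage and blood genes, from 818 to 515 RPKM over 13 fibroblast genes and from 25.1 to 12.9 RPKM over 8 endothelial genes. They went from 121 to 153 RPKM over 9 epicardial genes and from 25.2 to 22.1 RPKM over 8 neural genes. Of the epicardial genes 2 keratins were called higher, Krt19 (9.77 to 28.8 RPKM) and Krt18 (17.9 to 27.9 RPKM). By any size 5 epicardial genes were higher and 4 lower, the latter being Wt1, Tbx18, Aldh1a2 and Msln. Each of the 12 erythroid and 9 macrophage and blood genes was lower in the mutant library; the defining genes Gata1, Klf1, Aif1, Spi1 and Tyrobp and, for endothelium, Cdh5, Flt1 and Vwf were not analysed here. The part of these cells in the values of chromatin genes was not tested, and fewer cells of a type cannot be told apart from less RNA per cell in such pools.

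Most chromatin genes had lower values in the mutant library, by small amounts. Of the 108 genes, 86 had a lower value in mutant cells and 22 a higher one, that is 79.6% lower, while 67.1% of the 12446 genes with a symbol of their own were lower. The median log2 ratio of mutant over control RPKM was -0.35 for the 108 genes and -0.22 for the whole table. For 9 of the 108 genes the counting interval of the fold included no difference.

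A gene was called higher or lower when it reached 5 RPKM in at least 1 library and log2((mutant RPKM + 1)/(control RPKM + 1)) corresponded to at least 1.5-fold. The level was reached by 58 chromatin genes. Of these, 10 were called lower (17.2%) and 0 higher, whereas of all 6343 genes at that level 11.8% were called lower and 3.77% higher. At 2-fold, 2 of the 58 were lower and 0 higher, beside 2.68% and 1.01% of the table. By any size 45 of the 58 were lower, beside 61.9% of the table, and their median log2 ratio was -0.24, beside -0.11. The 2-fold share of the chromatin genes was 3.45%, near that of the table.

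The level rule admits a gene through either library. Of the 58 genes, 13 reached 5 RPKM through the control library alone and 0 through the mutant library alone. The same split was not counted over all genes. Of the 10 called genes, 5 reached the level through the control library alone. With the level required of the mean of both libraries, 8 of 54 genes were called lower (14.8%), beside 9.55% of the table. The count of called genes also depends on centring: over the table, 4.79% of genes were called higher and 9.11% lower once ratios were centred on the median gene, and 6.02% and 7.22% once the median of each level bin was subtracted. The chromatin genes then gave 7 and 6 called lower, with 0 higher in both cases.

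**Figure D1:**
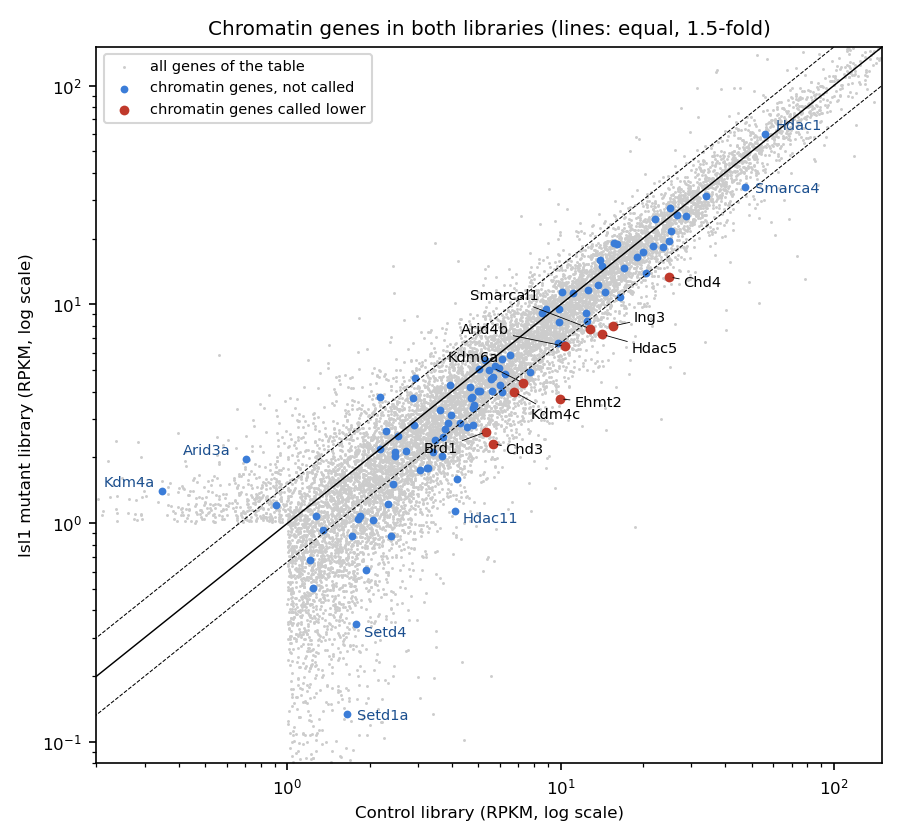
RPKM of each gene in the control library (horizontal) and the Isl1 mutant library (vertical), both on log axes, with 1 point per gene. Grey points are all genes of the table, blue points the 98 chromatin genes that were not called, and red points the 10 that were called lower; the solid line marks equal values and the dashed lines a 1.5-fold ratio of RPKM without a pseudocount. The red points lie between 5.34 and 24.9 RPKM in control cells, and no blue point at 5 RPKM or more lies above the upper dashed line.

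Ratios in these libraries moved with expression level and with exon length, taken as the union of all exons of a gene. Chromatin genes had more exon length than the table and a similar level. Their median exon length was 6824 bases, beside 4273 bases for the table, and their median control level 5.41 RPKM, beside 4.81 RPKM. Whether length or level is a cause of their ratios was not tested. Between 2 and 5 RPKM (geometric mean of both libraries) the median log2 ratio was -0.44 for 38 chromatin genes and -0.31 for all 3130 genes. Between 5 and 10 RPKM it was -0.28 for 23 and -0.18 for 2175 genes, and between 10 and 20 RPKM it was -0.21 for 19 and -0.10 for 1705 genes. At 20 RPKM or more it was -0.19 for 11 and -0.01 for 1884 genes, and below 2 RPKM it was -0.84 for 17 and -0.62 for 3552 genes. In each of the 5 bins the chromatin genes lay below all genes of their level, by 0.095 to 0.22 log2 units, and 3 of these bins held under 20 of them.

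By exon length, the medians lay close together between 4000 and 8000 bases and apart among the longest genes. For genes at 5 RPKM they were -0.16 for 20 chromatin genes and -0.14 for the table between 4000 and 6000 bases, and -0.23 for 15 chromatin genes and -0.20 for the table between 6000 and 8000 bases. For exons of 8000 bases or more, the median was -0.56 in 19 chromatin genes and -0.28 in 878 genes of the table, and between 2000 and 4000 bases it was -0.19 in 4 chromatin genes and -0.06 in the table. With level and exon length both subtracted in bins, the median of the 58 chromatin genes was -0.06 and that of the table -0.01. The table lists genes that reached 1 RPKM in at least 1 library, so ratios of its lowest genes are bounded by that selection.

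**Figure D2:**
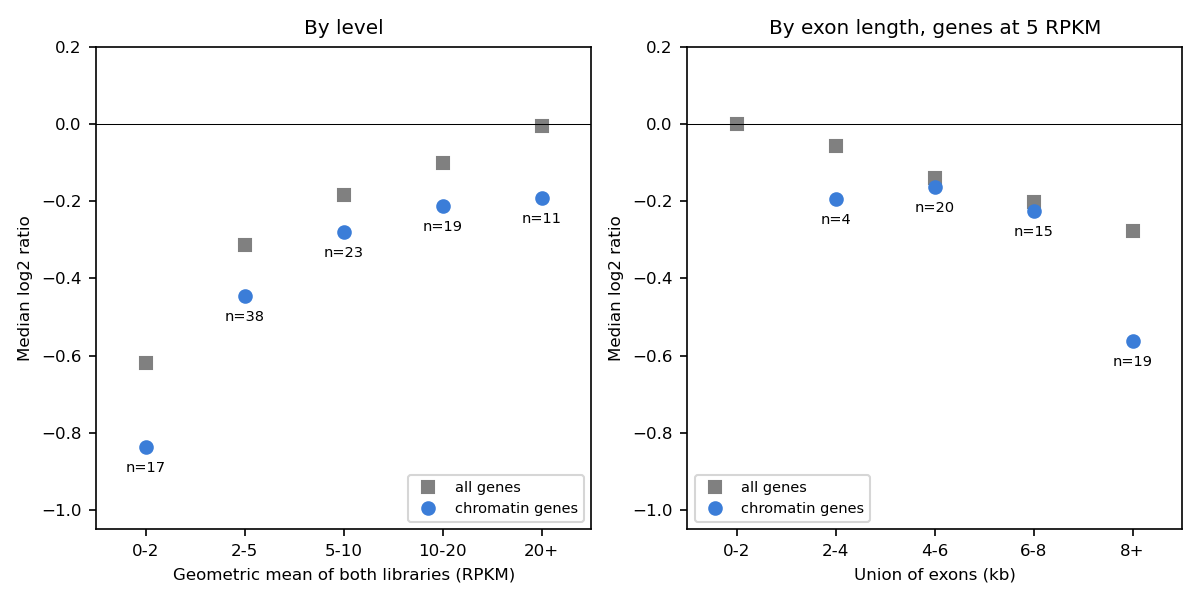
Median log2 ratio of mutant over control RPKM (vertical) in bins of expression level (left, geometric mean in RPKM) and of exon length (right, kilobases, for genes that reached 5 RPKM in either library). Grey squares are all genes and blue circles the chromatin genes, with their number beneath; there is 1 library per genotype and no error bar. The circles lie below the squares in each level bin, by 0.095 to 0.22, and close to the squares between 4 and 8 kb of exon.

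The 10 genes called lower belong to several enzyme classes. Ehmt2 (chromosome 17, 35035414 to 35050997, mm9), which encodes the H3K9 methyltransferase G9a, had the largest ratio of the 10. It read 9.91 RPKM in control and 3.71 RPKM in mutant cells, 2.67-fold lower (interval 2.50 to 2.86). Chd3 (chromosome 11, 69156775 to 69182928) and Chd4 (chromosome 6, 125045999 to 125080609) encode the alternative ATPases of the NuRD complex, which joins remodelling to deacetylation. Chd3 read 5.65 RPKM in control and 2.31 RPKM in mutant cells, 2.45-fold lower (interval 2.32 to 2.59). Chd4 read 24.9 and 13.4 RPKM, 1.86-fold lower (interval 1.82 to 1.91), on at least 19994 and 11606 reads. Of the 10, Ehmt2 and Chd3 also passed 2-fold.

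Brd1 (chromosome 15, 88517464 to 88564663), a bromodomain scaffold of histone acetyltransferase complexes, read 5.34 and 2.62 RPKM, 2.04-fold lower (interval 1.92 to 2.17). It lies just inside the level of 5 RPKM. Ing3 (chromosome 6, 21899571 to 21926038), a PHD finger subunit of the NuA4 acetyltransferase complex, read 15.6 and 7.97 RPKM, 1.95-fold lower (interval 1.86 to 2.05). Hdac5 (chromosome 11, 102055746 to 102091480), a class IIa deacetylase, read 14.2 and 7.29 RPKM and was also 1.95-fold lower (interval 1.89 to 2.02).

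The other 4 called genes lay closer to the threshold. Kdm4c (chromosome 4, 73888401 to 74051764), an H3K9 and H3K36 demethylase, was 1.698-fold lower (6.76 to 3.98 RPKM, interval 1.605 to 1.797). Kdm6a (chromosome X, 17739701 to 17857062), the H3K27 demethylase also called UTX, was 1.66-fold lower (7.29 to 4.38 RPKM, interval 1.59 to 1.74). Smarcal1 (chromosome 1, 72583621 to 72679708), an annealing helicase that protects stalled replication forks, was 1.66-fold lower (12.8 to 7.74 RPKM, interval 1.55 to 1.78). Arid4b (chromosome 13, 14155499 to 14291870), a subunit of the SIN3 deacetylase complex, was 1.62-fold lower (10.4 to 6.43 RPKM, interval 1.53 to 1.71) and overlaps Ggps1 on the opposite strand. Whether the counting used strand is not stated, so reads from a shared stretch may not be told apart. On the scale with 1 added to both values, Arid4b stood at 1.53-fold and Kdm6a at 1.54-fold, just inside the threshold. Just outside it stood Cbx5 at 1.49-fold, Smarcc2 at 1.48-fold and Cbx1 at 1.47-fold.

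Promoters of called genes are shown to print the regulatory sequence at their starts. RefSeq (GRCm38.p6) had start site windows of 300 bases, from 250 before to 50 after the start, for 88 of the 108 genes and 9 of the 10 called genes. The 3 below, read 5′ to 3′ on the gene's strand, are from called genes with 1 start each. Capitals mark TAAT or ATTA, the core letters that homeodomain factors such as ISL1 bind, and ACGTG or CACGT, the core of the hypoxia response element. Both strands were searched, and CACGTG holds both forms of the last.
Hdac5 promoter (chr11:102230123-102230422, minus strand): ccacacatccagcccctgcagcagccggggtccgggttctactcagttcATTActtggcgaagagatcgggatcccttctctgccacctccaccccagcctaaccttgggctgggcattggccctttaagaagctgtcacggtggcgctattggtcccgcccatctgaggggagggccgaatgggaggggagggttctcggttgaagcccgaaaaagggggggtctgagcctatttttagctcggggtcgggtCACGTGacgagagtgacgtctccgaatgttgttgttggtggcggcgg
Kdm6a promoter (chrX:18162325-18162624, plus strand): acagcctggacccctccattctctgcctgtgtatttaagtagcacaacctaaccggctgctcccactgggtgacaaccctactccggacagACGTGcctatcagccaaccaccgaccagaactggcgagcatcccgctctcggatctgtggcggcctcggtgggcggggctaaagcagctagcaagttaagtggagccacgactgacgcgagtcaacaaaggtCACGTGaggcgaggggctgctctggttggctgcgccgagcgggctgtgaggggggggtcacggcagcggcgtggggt
Brd1 promoter (chr15:88734170-88734469, minus strand): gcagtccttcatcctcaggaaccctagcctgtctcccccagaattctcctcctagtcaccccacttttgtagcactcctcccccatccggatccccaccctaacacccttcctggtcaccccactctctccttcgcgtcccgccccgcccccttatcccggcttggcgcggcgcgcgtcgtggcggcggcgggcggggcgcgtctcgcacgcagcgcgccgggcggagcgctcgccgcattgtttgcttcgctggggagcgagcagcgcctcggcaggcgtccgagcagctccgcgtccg

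The Hdac5 window held 1 TAAT core (as ATTA) and a CACGTG, the Kdm6a window a CACGTG and a further ACGTG, and the Brd1 window neither motif. Arid4b and Smarcal1 also had 1 start each and are not printed. The Smarcal1 window held 1 TAAT core and no ACGTG, and the Arid4b window neither motif. TAAT on either strand was in 7 of the 13 windows of called genes (53.8%), in 30.4% of the 125 windows of chromatin genes and in 58.03% of all 32851 windows. ACGTG on either strand was in 5 of the 13 (38.5%), in 17.6% of the windows of chromatin genes and in 19.6% of all windows. The 13 windows belong to 9 genes and are not independent. Those of Chd4 overlap each other, as do those of Ing3, and each of these windows held TAAT. Each window of Ehmt2 held ACGTG, so these shares count some genes more than 1 time. The windows of chromatin genes were rich in G and C, with a median of 64.7% and 25 CpG steps, beside 52.7% and 7 in all windows. These are matches of letters, and binding was not measured.

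The remodellers comprised 26 genes, of which 23 were lower by any size, 15 reached 5 RPKM and 3 were called lower (Chd3, Chd4 and Smarcal1). Of all genes, 67.1% were lower by any size and 11.8% of those at 5 RPKM were called lower. In the BAF and PBAF complexes (13 of 14 listed genes in the table) 11 were lower, 8 reached 5 RPKM and 0 were called, with a median log2 ratio of -0.21 at that level. Smarca4, the BRG1 ATPase of these complexes, was the second most abundant chromatin gene, at 47.3 RPKM in control and 34.5 RPKM in mutant cells, 1.37-fold lower (interval 1.35 to 1.39). Its alternative Smarca2 (BRM) stood at 4.29 and 2.87 RPKM, 1.49-fold lower (interval 1.37 to 1.62). The core subunits Smarcb1 and Smarcc1 were 1.17-fold and 1.15-fold lower, at 21.8 and 20.1 RPKM in control cells. Smarcc2 was 1.55-fold lower (10.2 to 6.61 RPKM, interval 1.49 to 1.61), and Smarce1, the BAF57 subunit, 1.17-fold higher (16.1 to 18.9 RPKM, interval 1.13 to 1.22).

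The subunits that define complex variants had unequal ratios. Arid1a, the larger-share BAF250 subunit, read 5.04 and 5.07 RPKM, with an interval that included no difference (0.930 to 1.09 as mutant over control). Arid1b, its alternative, read 2.05 and 1.04 RPKM and was 1.98-fold lower (interval 1.84 to 2.12), under the level of 5 RPKM. Of the PBAF genes, Arid2 was 1.39-fold lower (3.76 to 2.71 RPKM) and Brd7 1.08-fold lower (12.6 to 11.6 RPKM). Brd9, of the non-canonical BAF complex, was 1.28-fold lower (14.5 to 11.4 RPKM). Smarcd3, the BAF60C subunit known from heart development, was 1.11-fold lower (4.66 to 4.18 RPKM, interval 1.05 to 1.18).

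Beside 67.1% of all genes, 8 of the 9 CHD genes in the table had lower values. Their median log2 ratio was -0.81 with the 4 genes under 5 RPKM and -0.37 for the 5 at that level. The ISWI and other SNF2 genes at that level were 2, Smarca1 at -0.15 and Smarcal1 at -0.73, with a median of -0.44. Besides Chd3 and Chd4, the low-level genes Chd8, Chd9, Chd6 and Chd1 were 1.97-fold, 1.91-fold, 1.75-fold and 1.73-fold lower, with control values from 1.72 to 3.07 RPKM. Chd7, a remodeller required for neural crest and heart development, was 1.296-fold lower (6.26 to 4.83 RPKM, interval 1.252 to 1.34). Chd2 was 1.08-fold higher (8.85 to 9.52 RPKM), and Chd1l, a PARP-activated remodeller, read 9.82 and 9.56 RPKM with an interval that included no difference. The ISWI ATPases Smarca1 (SNF2L) and Smarca5 (SNF2H) were 1.11-fold (interval 1.08 to 1.14) and 1.34-fold lower, at 13.7 and 3.85 RPKM in control cells.

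The subunits of the NuRD complex, set side by side after their values were seen, ranged widely. Beside Chd4 and Chd3, Gatad2b was 2.06-fold lower (6.46 to 3.14 RPKM) and Mta3 1.59-fold lower (18.1 to 11.4 RPKM). Gatad2a was 1.28-fold lower (5.37 to 4.18 RPKM), Hdac2 1.37-fold lower, and, under 5 RPKM, Mta1 1.53-fold and Mbd2 1.28-fold lower. In the same complex Hdac1 was 1.07-fold higher, Rbbp7 1.18-fold higher (236 to 277 RPKM), Rbbp4 1.09-fold higher (22.4 to 24.5 RPKM), Mbd3 1.05-fold lower and Mta2 1.14-fold lower (39.5 to 34.7 RPKM).

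**Figure D3:**
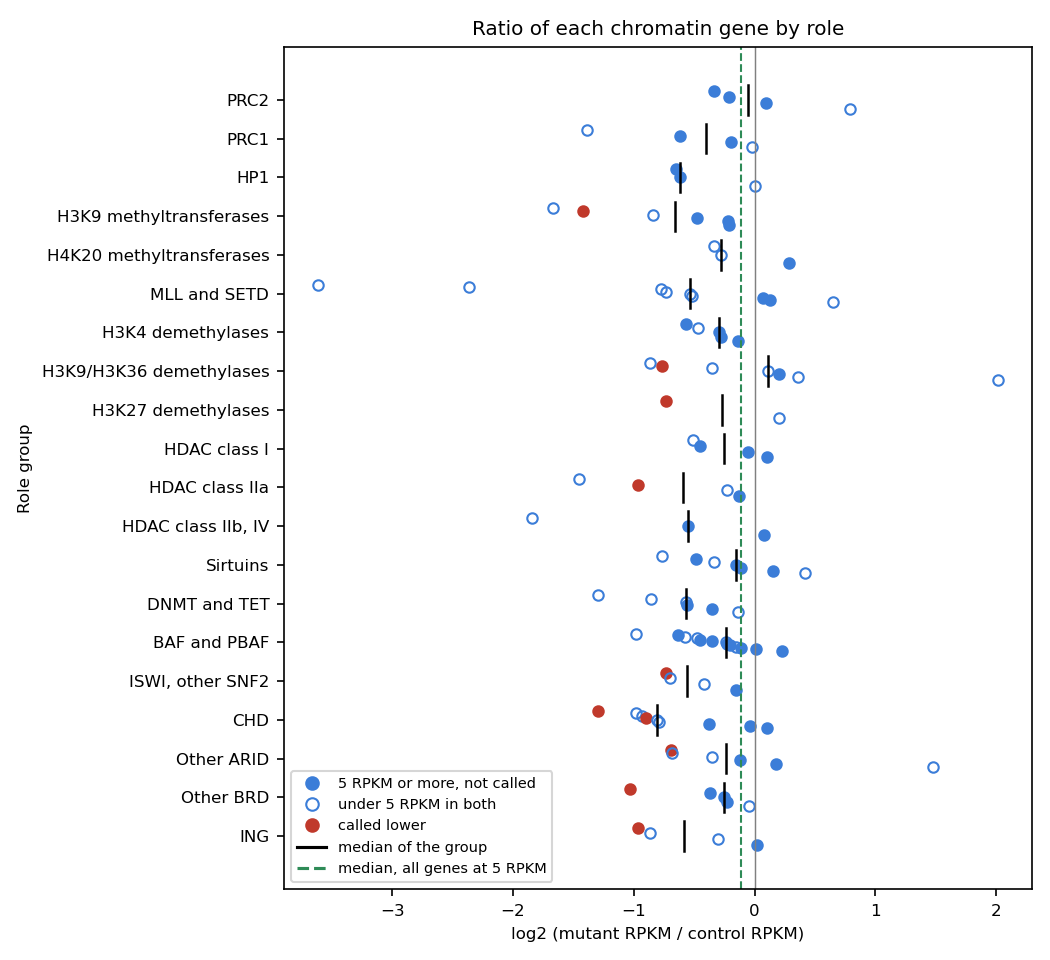
Log2 ratio of mutant over control RPKM (horizontal) for each of the 108 chromatin genes, in 20 role groups (vertical). Filled points reached 5 RPKM in at least 1 library, open points did not, red points were called lower, black bars are group medians and the dashed line is the median of all genes at 5 RPKM (-0.11). The groups' black bars lie to the left of 0 except for the H3K9 and H3K36 demethylases, and the widest ratios, from -3.61 to 2.02, belong to open points.

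Deacetylases are given by class, and the ratios of the classes overlap. Class I genes, mostly nuclear enzymes of corepressor complexes, had a median log2 ratio of -0.06 over the 3 at 5 RPKM, closest to 0 of the HDAC classes. Hdac1, the most abundant of the 108 genes, read 55.9 RPKM in control and 59.9 RPKM in mutant cells, 1.07-fold higher (interval 1.05 to 1.09). Hdac3, the enzyme of the NCoR complex, was 1.04-fold lower (26.7 to 25.6 RPKM, interval 1.01 to 1.07), Hdac2 1.37-fold lower (12.4 to 9.09 RPKM, interval 1.29 to 1.45) and Hdac8 1.42-fold lower (4.77 to 3.36 RPKM). Summed over the 4 genes, class I stood at 99.8 and 98.03 RPKM.

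Class IIa genes summed to 24.6 RPKM in control and 15.3 RPKM in mutant cells, 62.3% of control. Most of that difference was Hdac5. Hdac7, known from endothelial cells, was 2.74-fold lower at a low level (2.39 to 0.875 RPKM) and overlaps Slc48a1 on the other strand. Hdac9 and Hdac4 were 1.09-fold (interval 1.02 to 1.16) and 1.17-fold lower, at 5.48 and 2.47 RPKM in control cells. Of 8 endothelial marker genes in the same libraries, 7 were lower and 1 higher (Npr3, 0.530 to 1.39 RPKM). At 5 RPKM, Kdr was 2.31-fold lower (7.40 to 3.21 RPKM) and Tek 1.57-fold lower (6.24 to 3.97 RPKM). The part of endothelial cells in the Hdac7 value was not tested.

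Of the remaining classes, Hdac6, the cytoplasmic tubulin deacetylase, read 14.2 and 14.97 RPKM, 1.06-fold higher (interval 1.03 to 1.09). Hdac10, a polyamine deacetylase, was 1.47-fold lower (9.81 to 6.68 RPKM, interval 1.398 to 1.54). Hdac11, the class IV enzyme, was 3.59-fold lower (4.09 to 1.14 RPKM, interval 3.20 to 4.03) but stayed under 5 RPKM in both libraries and overlaps Gm14573 on the opposite strand.

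Sirtuins, the NAD-dependent deacylases, had 5 of 7 genes lower, beside 67.1% of all genes. Of the 4 at 5 RPKM 0 were called, beside 11.8% called lower and 3.77% called higher of all genes. The cytoplasmic Sirt2 led in level (34.03 to 31.4 RPKM, 1.08-fold lower, interval 1.05 to 1.12), followed by the mitochondrial Sirt3 (22.2 to 24.6 RPKM, 1.11-fold higher). Sirt4 and Sirt5, also mitochondrial, were 1.399-fold (5.99 to 4.28 RPKM, interval 1.28 to 1.52) and 1.11-fold lower (6.54 to 5.865 RPKM, interval 1.05 to 1.18). The nuclear Sirt6 and nucleolar Sirt7 were 1.26-fold and 1.70-fold lower under 5 RPKM, and Sirt1 read 0.906 and 1.21 RPKM, 1.33-fold higher (interval 1.15 to 1.54).

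Polycomb genes had 0 calls among the 5 that reached 5 RPKM, beside 11.8% called lower and 3.77% called higher of all genes at that level. With so few genes, 0 calls lies near these shares. In PRC2, the H3K27 methyltransferase complex, 3 of 4 genes reached 5 RPKM and 0 of these were called. The summed level of the 4 genes was 21.8 RPKM in control and 22.1 RPKM in mutant cells. Ezh2, the catalytic subunit of dividing cells, was 1.16-fold lower (5.95 to 5.14 RPKM, interval 1.099 to 1.22), Suz12 1.26-fold lower (5.09 to 4.03 RPKM, interval 1.18 to 1.34) and Eed 1.07-fold higher (8.54 to 9.14 RPKM, interval 1.004 to 1.14). Ezh1, the alternative catalytic subunit, went the other way from Ezh2, at 2.18 and 3.78 RPKM, 1.73-fold higher (interval 1.63 to 1.84). It lay under 5 RPKM in both libraries. Cell cycle genes, which often vary together with Ezh2, had a median log2 ratio of 0.05 over 21 genes at 5 RPKM.

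In PRC1, which ubiquitinates H2A and binds H3K27 methylation, 4 of 4 genes were lower, beside 67.1% of all genes. Rnf2, the RING1B ligase, was 1.14-fold lower (28.8 to 25.2 RPKM, interval 1.11 to 1.17). The chromodomain gene Cbx2 was 2.61-fold lower (4.16 to 1.59 RPKM, interval 2.39 to 2.86) at a level under 5 RPKM, Cbx6 was 1.54-fold lower (6.097 to 3.97 RPKM, interval 1.46 to 1.61) and Cbx8 stood at 2.55 and 2.50 RPKM.

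Heterochromatin genes were lower in most cases, as were 67.1% of all genes by any size. The 6 H3K9 methyltransferase genes were all lower, from 1.16-fold for Suv39h1 (17.05 to 14.7 RPKM) and Ehmt1 (19.02 to 16.4 RPKM, interval 1.13 to 1.19) to 2.67-fold for Ehmt2, with Setdb1 at 1.39-fold (5.59 to 4.01 RPKM, interval 1.28 to 1.52). Setdb2 and Suv39h2, under 2 RPKM, were 3.17-fold and 1.79-fold lower. The HP1 proteins bind methylated H3K9: Cbx5 (HP1 alpha) was 1.53-fold lower (16.5 to 10.8 RPKM, interval 1.496 to 1.57) and Cbx1 (HP1 beta) 1.57-fold lower (7.74 to 4.93 RPKM, interval 1.44 to 1.71), both just outside the call. Cbx3 (HP1 gamma) read 2.19 RPKM in both.

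Of the H4K20 methyltransferases, Suv420h2 was 1.22-fold higher (15.7 to 19.2 RPKM, interval 1.18 to 1.26), the highest ratio among the 58 genes at 5 RPKM. Setd8, which places the first methyl group on H4K20, was 1.26-fold lower (4.75 to 3.76 RPKM) and Suv420h1 1.21-fold lower (2.47 to 2.04 RPKM).

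Among the MLL and SETD genes, 9 of 14 listed were in the table and 2 reached 5 RPKM. Mll5, a SET domain gene without known H3K4 activity, was the most abundant and 1.096-fold higher (25.2 to 27.6 RPKM, interval 1.07 to 1.12). The H3K4 methyltransferases Mll1 and Mll3 were 1.71-fold and 1.43-fold lower, at 1.85 and 3.46 RPKM in control cells. Setd2, the enzyme that places the last methyl group on H3K36, was 1.66-fold lower (4.55 to 2.74 RPKM), while Setd5 was 1.57-fold higher (2.93 to 4.60 RPKM, interval 1.51 to 1.63). Setd3, the actin histidine methyltransferase, was 1.05-fold higher (5.301 to 5.58 RPKM, interval 1.003 to 1.104). Setd4 was 5.16-fold lower (1.78 to 0.346 RPKM). Setd1a gave a ratio of 12.2 on at least 34 control and 3 mutant reads, with an interval from 3.85 to 62.3, and overlaps Hsd3b7 on the same strand.

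Histone demethylases are given by substrate, and at 5 RPKM the median log2 ratio was -0.28 both for the 4 H3K4 genes and for the 2 H3K9 and H3K36 genes. The 5 genes for H3K4 demethylases were lower, beside 67.1% of all genes. Of the 4 at 5 RPKM 0 were called, beside 11.8% called lower and 3.77% called higher of all genes. Kdm5b was 1.48-fold lower (12.5 to 8.44 RPKM, interval 1.44 to 1.53). Kdm5a and Kdm5c were 1.21-fold and 1.22-fold lower (5.67 to 4.68 and 5.58 to 4.565 RPKM, for Kdm5c interval 1.17 to 1.28). Kdm1a (LSD1) was 1.0998-fold lower (5.74 to 5.22 RPKM). Kdm1b was 1.39-fold lower (4.81 to 3.47 RPKM).

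The demethylases of H3K9 and H3K36 went both ways, with 3 lower and 4 higher of 7 genes. Kdm3a, an H3K9 demethylase known as a target of hypoxia-inducible factor, was the most abundant and 1.15-fold higher (13.9 to 16.01 RPKM, interval 1.10 to 1.198). Of 13 hypoxia and glycolysis genes at 5 RPKM, 11 were called higher and 0 lower, beside 3.77% and 11.8% of all genes. Their median log2 ratio was 0.83, beside -0.11 for all genes at that level. The part of these genes in the Kdm3a value was not tested. Kdm4b and Kdm4c, which hypoxia also induces in other cells, were 1.27-fold and 1.698-fold lower. Kdm2b, a subunit of a variant PRC1 complex, was 1.29-fold higher (2.89 to 3.72 RPKM). Kdm4a had the highest ratio of the 108 genes, at 0.347 and 1.40 RPKM, 4.04-fold higher (interval 3.06 to 5.42), on at least 62 and 271 reads. Kdm3b was 1.82-fold lower (3.26 to 1.79 RPKM). For H3K27, Kdm6a was lower as given above and Kdm6b (JMJD3) read 2.30 and 2.65 RPKM, 1.15-fold higher with an interval that included no difference (interval 0.972 to 1.37).

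DNA methylation genes were lower in 6 of 6 cases, beside 67.1% of all genes. Of the 2 at 5 RPKM 0 were called, beside 11.8% called lower and 3.77% called higher of all genes. Dnmt1, the maintenance enzyme, was 1.28-fold lower (25.01 to 19.6 RPKM, interval 1.247 to 1.31). Dnmt3a, a de novo enzyme, was 1.48-fold lower (20.6 to 13.9 RPKM, interval 1.45 to 1.5003) on at least 36143 and 26455 reads, the most of any chromatin gene. Dnmt3b was low and 2.46-fold lower (1.24 to 0.504 RPKM, interval 2.11 to 2.87). The TET enzymes, which oxidise methylcytosine, stood between 3.25 and 3.698 RPKM in control cells, and between 1.79 and 3.296 RPKM in mutant cells. Tet1 was 1.0983-fold (interval 1.06 to 1.14), Tet2 1.49-fold (interval 1.37 to 1.61) and Tet3 1.81-fold (interval 1.72 to 1.91) lower.

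Among other readers, the BET genes Brd2 and Brd3, which bind acetylated histones, were 1.29-fold (23.6 to 18.3 RPKM, interval 1.246 to 1.33) and 1.17-fold lower (25.4 to 21.7 RPKM, interval 1.14 to 1.198). Brd8, of the NuA4 complex, was 1.19-fold lower (9.87 to 8.31 RPKM). Of the ING genes, Ing4 read 11.1 and 11.3 RPKM (interval 0.9696 to 1.06) beside the called Ing3, and Ing5 was 1.82-fold lower under 5 RPKM (3.69 to 2.02 RPKM). Of the other ARID genes, Arid3b, an AT-rich DNA-binding protein, was 1.13-fold higher (10.1 to 11.4 RPKM, interval 1.103 to 1.16), Arid4a 1.09-fold lower (6.11 to 5.62 RPKM) and Arid5b 1.61-fold lower (3.41 to 2.12 RPKM). Arid3a was 2.79-fold higher at a low level (0.703 to 1.96 RPKM, interval 2.49 to 3.14).

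Several pairs of paralogues, chosen after their values were seen, had unequal ratios. The share of Ezh1 in the sum of Ezh1 and Ezh2 RPKM was 26.8% in control and 42.4% in mutant cells. Ehmt1 made up 65.7% and 81.6% of the sum with Ehmt2, which is no alternative to it but its partner in a heterodimer. Arid1a made up 71.1% and 83.003% of the pair with Arid1b, and Kdm6a 76.004% and 62.3% of the pair with Kdm6b. The share of Smarca4 in the pair with Smarca2 was 91.7% and 92.3%, and that of Chd4 in the pair with Chd3 was 81.5% and 85.3%. The header says that constitutive exons were used, and isoforms were not tested.

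**Figure D4:**
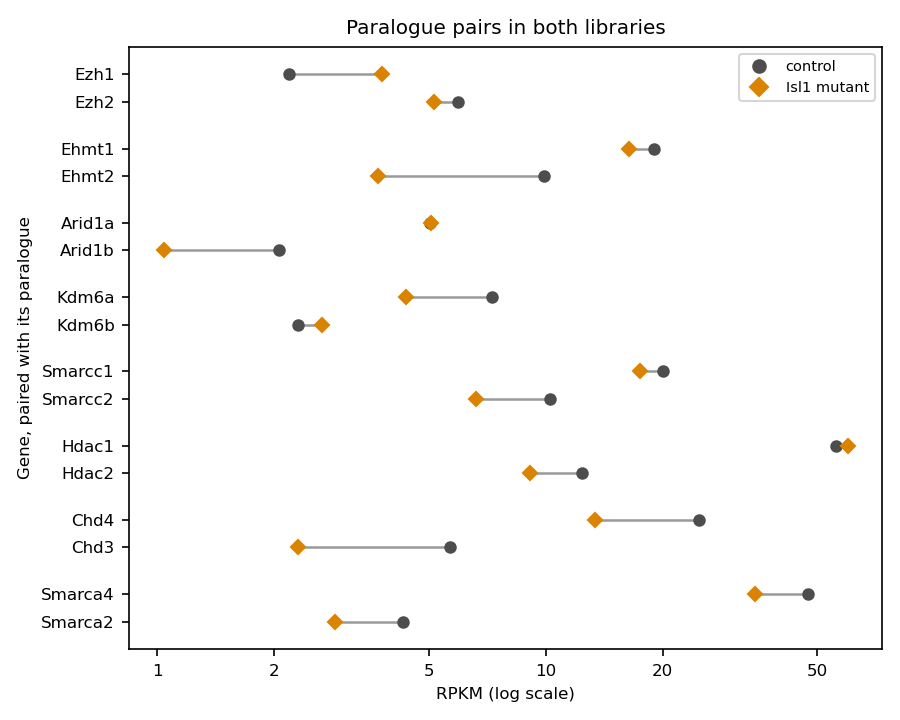
RPKM on a log axis (horizontal) of 8 pairs of paralogues (vertical), with grey circles for the control library and orange diamonds for the Isl1 mutant library joined by a line; there is 1 value per library. Within the pairs, the mutant points of Ehmt2, Arid1b and Chd3 lie further left of control than those of Ehmt1, Arid1a and Chd4, and Ezh1 lies further right in the mutant library while Ezh2 lies further left.

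Further genes of the same complexes, outside the symbol rule, were counted in the same way. Such genes numbered 101 in the table, 74 of them lower by any size, beside 67.1% of all genes. At 5 RPKM, 10 of 53 were called lower and 1 higher, beside 11.8% and 3.77% of all genes, and the median log2 ratio was -0.17, beside -0.11. Among Polycomb partners, Phc1 and Yaf2 were called lower (5.78 to 3.27 and 13.9 to 8.60 RPKM). Pcgf5, a RING finger partner of variant PRC1, was called higher, 2.22-fold (3.16 to 7.03 RPKM). Among acetyltransferases, Myst3 (now Kat6a) was 2.11-fold lower (9.38 to 4.45 RPKM) and Crebbp (CBP) 1.699-fold lower (9.84 to 5.79 RPKM), while Kat2a (GCN5) was 1.12-fold higher. Ncor1, the corepressor that carries Hdac3, was 1.71-fold lower (7.27 to 4.24 RPKM), and Tbl1x of the same complex 1.29-fold higher. Among methyltransferases and their scaffolds, Smyd1, a methyltransferase of striated muscle, was 2.77-fold lower (68.4 to 24.7 RPKM), Rbbp5 of the MLL core 1.77-fold lower (9.37 to 5.30 RPKM) and Ash1l 1.62-fold lower. In that list Prmt1, the main arginine methyltransferase, was 1.52-fold higher by the ratio of RPKM (4.89 to 7.43 RPKM) and not called, since 1 is added to both values for a call. Among remodeller partners the highest ratio at 5 RPKM was that of Bcl7b, 1.41-fold higher (6.22 to 8.75 RPKM).

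The 50 chromatin genes under 5 RPKM in both libraries stood at a median log2 ratio of -0.51, where it was -0.41 for the 6103 genes of the table at that level. Of these 50, 41 were lower, beside 4428 of the 6103. The genes nearest the level, Ing1, Kdm1b and Sirt7, reached 4.98, 4.81 and 4.796 RPKM, and just inside it were Arid1a, Suz12 and Brd1, at 5.07, 5.09 and 5.34 RPKM. In all, 25 of the 108 genes overlap another gene of the table, among them Smarca4, Sirt2, Sirt3, Mll5, Dnmt1, Brd2, Brd3, Cbx5, Cbx6 and, of the 10 called, Arid4b.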

How the data were processed

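RNA was sequenced as 90 bp read pairs from 10 ng of total RNA per genotype, per the labels' protocols. The submitters' processing notes name Trim Galore, FastQC, TopHat2, Bowtie2 and the mm9 build. No label or header names the program that wrote the gene values. The exons used are called constitutive in the file header. The deposited values were taken as RPKM because value times length gave whole reads within 0.01 for 288 of 288 control and 280 of 288 mutant small RNA genes of 1 exon, which also gave the library totals. The authors' log2 ratio equals that of the RPKM values within 1.89e-07, and the authors' signed fold score was not used.

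For each gene the smallest read numbers fitting both values were used for intervals, so true numbers can be larger. For repeated symbols the row with the highest mean was kept (12446 of 12557). Calls add a pseudocount of 1. Ratios have none. Exon lengths are from GENCODE M21 by Ensembl identifier. Python 3.11.15 with scipy 1.17.1 was used, and scripts were tested on simulated data.

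The chromatin genes, role groups and lists were chosen with earlier results of these data known. Every chromatin gene could be named, with intervals for called genes, for the extremes at 5 RPKM in each role group and for a core list (Setd7 of that list was not analysed here, and 1 further gene is not reported here). From partner lists the rule took genes called at 1.5-fold and the highest and lowest ratio at 5 RPKM. NuRD subunits, other partner genes and the paralogue pairs fall outside it.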

Additional observations from a re-analysis of the deposited data

How the results depend on the processing

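The share of all genes called lower in the same setting stands in brackets. The 10 genes called lower (11.8%) became 14 with no pseudocount (14.6%) and 4 with a pseudocount of 5 (4.71%), 20 with no level required (17.5%, with 3 chromatin genes called higher), 5 at a level of 10 RPKM (8.48%), 24 at a lower fold threshold (27.1%) and 2 at 2-fold (2.68%). With the median of each level bin subtracted 6 were called lower (7.22%), and 5 with level and gene span (7.09%) or, chosen after seeing the data, level and exon length (6.84%) subtracted. In the other alternatives the number called higher stayed at 0. The median log2 ratio of -0.24 (all genes -0.11) became -0.35 (-0.22) with no level required, -0.13 (-0.017) with level, -0.11 (-0.015) with level and span and -0.061 (-0.014) with level and exon length subtracted, and it was negative in each alternative run. The partner genes' median of -0.17 became -0.33 with no level required, -0.060 at 10 RPKM (where all genes stood at -0.067), -0.065 with level and span and -0.068 with level and exon length subtracted. Of 20 role groups 18 had a median under 0 at 5 RPKM, and 11 with level and exon length subtracted. None of the 10 called genes changed sign under centring or the bin subtractions, and a pseudocount cannot change a sign. This says little, because the median subtracted in centring was -0.073. The called ratio smallest in size was -0.69 (Arid4b). No paired analysis was possible because each genotype has 1 library, and for the same reason no library could be left out. The smallest fitting read numbers were low for Setd1a, Kdm4a and Setdb2, so their intervals are wide, though true read numbers can be larger.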
